A study of Rattus norvegicus with 21 samples.

Results

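Leucine, a branched-chain amino acid, was given in the drinking water at 1.5% to early weaned Sprague Dawley rats, and liver RNA of these rats was compared with that of early weaned rats without it. The comparison takes in 6 of the 21 liver samples of the series, 3 with leucine and 3 without, all taken at day 211 of age, and all 32623 genes of the deposited table, of which 15019 passed a filter on low counts. Every rat compared here was early weaned, that is, taken off milk before the usual age. A further 3 Sprague Dawley controls of day 211 stand in the same table and took part in the estimate of the spread. Their values are given beside the others for some genes only. Controls can lie near either early weaned group, as for Npc1 and Ocln below, so no general return to control levels should be read from the genes shown. The other 12 samples are Wistar livers of other ages and were not used. The series' title names obesity programmed by early weaning, beta-oxidation of fatty acids and cholesterol metabolism, and asks whether leucine mitigates these effects.

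The labels do not give the sex of the rats, the time of day at which livers were taken, the start or length of the leucine treatment, or whether samples come from separate animals. The p-values therefore measure the spread between these samples, which may be technical. Total counts ran from 55361373 to 64087086 units per sample in the 6 early weaned livers. About 4 units were assumed to stand for 1 sequenced fragment. Genes at 1 FPKM or more (fragments per kilobase of transcript, scaled to the fragments of each sample) numbered 10658 to 11082 per sample. Log values of the 3 samples without leucine correlated at 0.939 to 0.958, those of the 3 with leucine at 0.941 to 0.950, and those across the groups at 0.928 to 0.942. Markers of the labelled tissue were abundant. The hepatocyte markers summed to 73454 to 80135 FPKM without leucine and 77219 to 85736 with it, albumin (Alb) alone reaching 38029, 46151 and 40831 FPKM without and 42142, 43856 and 48919 with leucine. The bile duct keratin Krt7 was at 0 in 3 of the 6 samples and at most 0.129 FPKM, and the pancreas markers summed to at most 1.20 FPKM, with 1 of them tested.

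As background, the liver breaks down most amino acids, but branched-chain ones are first transaminated mainly in other tissues. Leucine is sensed by Sestrin proteins and by leucyl-tRNA synthetase and switches on mTORC1, a kinase complex that promotes protein and lipid synthesis. Enzymes of amino acid breakdown rise in liver with dietary protein, glucagon and glucocorticoids. The liver also has a circadian clock, in which Clock and Arntl drive the Per, Cry and Nr1d1 repressors and the output factors Dbp, Tef and Hlf. Immediate-early genes such as Jun and Egr1 are switched on within minutes by growth factors, stress or injury.

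Between the groups 54 genes were called at an adjusted p below 0.05 in edgeR's quasi-likelihood test, 0.36% of the genes tested. With leucine, 27 rose (0.18%) and 27 fell (0.18%). At an unadjusted p below 0.05 stood 1964 genes (13.1%). DESeq2 called 781 (5.03%) and limma on log2(FPKM + 1) 98 (0.653%), and the lists without an edgeR call that are described below have their counts by these 3 measures beside them. In all 54 edgeR calls the 3 samples with leucine lay outside the range of the 3 without, in FPKM and in scaled counts. Over all genes tested, samples did not overlap in 1433 that were higher with leucine (9.54%) and in 1584 that were lower (10.5%). Of the 54, 52 are protein coding and 50 differed at least 2-fold. The 10 called genes nearest the threshold, Egr1, Tef and Dgat2 among them, share an adjusted p of 0.0492, and the 10 genes just beyond it have 0.0507 to 0.0545. The share of rises among the calls was 52.4% with RLE size factors in edgeR and 41.7% with DESeq2. With limma on log2(FPKM + 1), log2(FPKM + 0.1) and log2(TPM + 1), which change the test, the values and the scaling together, it was 26.5%, 28.9% and 24.1%, and the median of all genes moved from 0.00 to -0.10, -0.15 and -0.14 on the log2 scale.

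**Figure D1:**
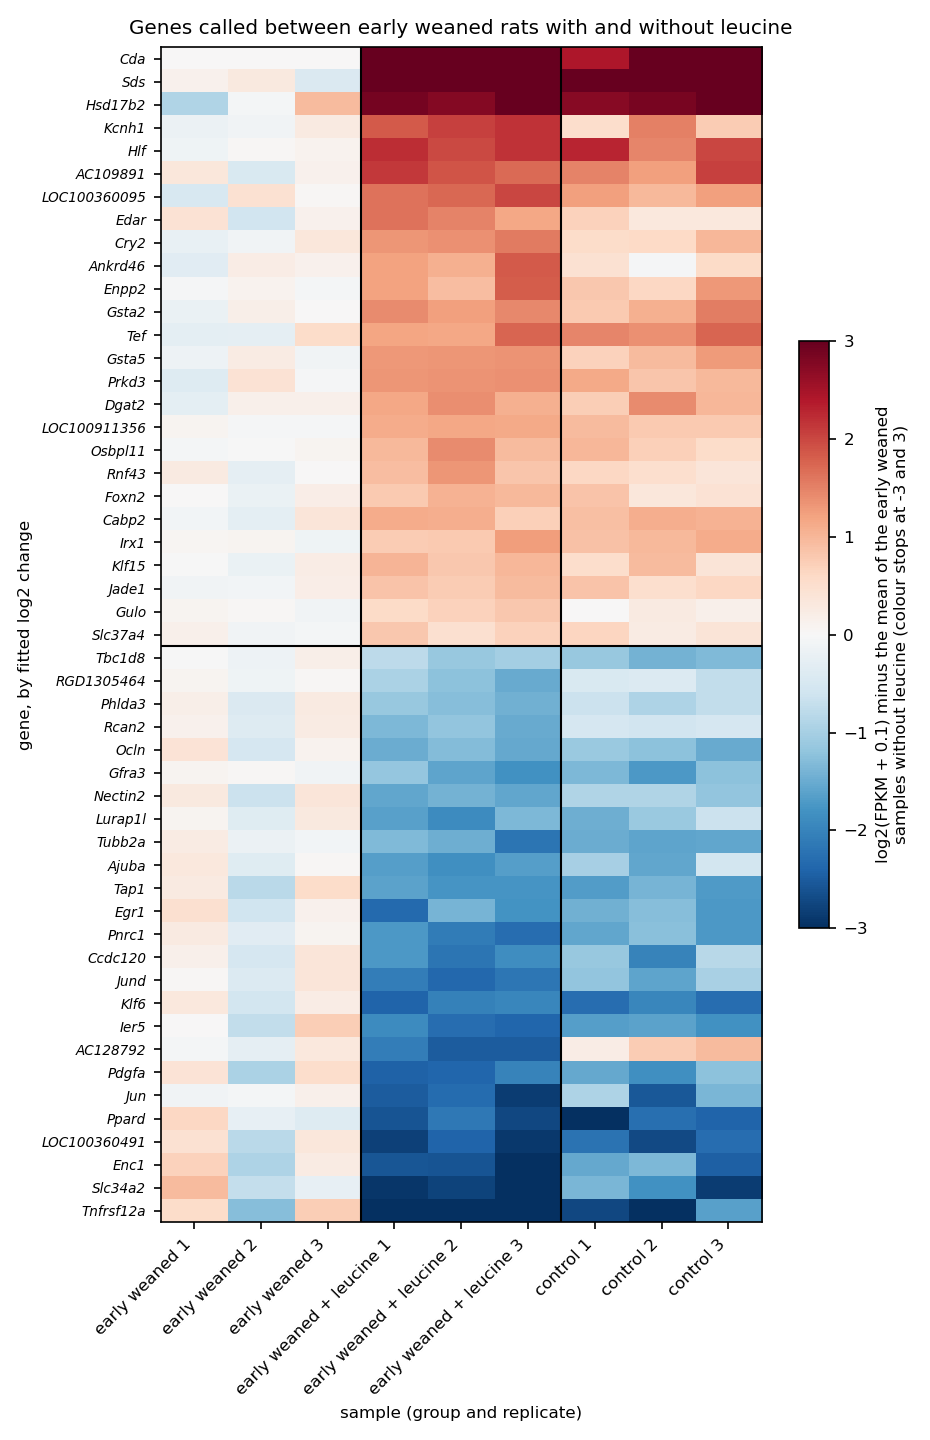
Heat map of 51 of the 54 called genes (rows, ordered by fitted log2 change) in the 3 early weaned samples without leucine, the 3 with leucine and the 3 controls (columns). Colour gives log2(FPKM + 0.1) minus the mean of the samples without leucine. The 26 rises drawn stand above the line and the 25 falls below it, and AC128792 is the fallen gene whose controls are coloured as higher.

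Among genes detected in both groups the largest rise called was in Sds, serine dehydratase, the enzyme that turns serine into pyruvate and ammonia. Its FPKM was 1.43, 1.61 and 0.937 in the samples without leucine, 92.7, 75.5 and 60.5 in those with leucine and 25.9, 33.6 and 52.3 in controls. The lowest sample with leucine is far above the highest without it, and all 3 samples without leucine lie below every control. Mean FPKM was 1.33 ± 0.349 (SD, n = 3) without and 76.2 ± 16.2 (SD, n = 3) with leucine, 57.5-fold higher, and the fitted log2 change was 5.98 (SE 0.37, adjusted p = 0.000478 in edgeR). Sds lies at chr12:41620393-41627741 in the rat build of the table, which the table does not name. It was called in 19 of 19 alternative settings, including each in which 1 of the 9 samples was left out, with log2 changes from 5.04 to 6.205.

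The other enzymes that break down amino acids were mostly higher with leucine, though Sds alone of 37 passed the test in edgeR, against 11 in DESeq2, all higher. Of the 37, 35 had a log2 change above 0, 18 did not overlap and were higher, 0 did not overlap and were lower, and the median was 0.53 against 0.00 for all genes. Mat1a, which makes S-adenosylmethionine from methionine, had 315, 341 and 227 FPKM without leucine and 537, 595 and 527 with it (log2 change 1.05, adjusted p = 0.0545). Cdo1, which oxidises cysteine, had 419, 539.8 and 442 against 751, 982 and 788 FPKM (log2 change 0.99, adjusted p = 0.0547). Both genes, and Got1, the cytosolic aspartate aminotransferase (35.2, 35.2 and 25.5 against 57.3, 61.1 and 52.2 FPKM, adjusted p = 0.0547), missed the threshold narrowly with no overlap between groups.

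All 11 genes of the urea cycle and ammonia handling had log2 changes above 0, with a median of 0.40, and edgeR called 0 (5 at an unadjusted p below 0.05, 1 by DESeq2, 0 by limma). Arg1, the arginase that releases urea, had 475, 467 and 664 FPKM without leucine and 820.0, 979 and 708 with it (log2 change 0.801, adjusted p = 0.0681). Nags, which makes the activator of the first step of the cycle, had 29.7, 31.9 and 34.8 against 37.7, 40.4 and 41.1 FPKM and did not overlap either. Otc, the ornithine carbamoyltransferase, had 186, 242 and 163 against 263, 243 and 248 FPKM (adjusted p = 0.268), and its nearest samples all but touch. Cps1, the entry enzyme, overlapped at 281, 419 and 191 against 434, 572 and 393 FPKM (adjusted p = 0.272).

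Genes for the breakdown of leucine itself and of the other branched-chain amino acids gave 0 calls in edgeR (4 at an unadjusted p below 0.05, 0 by DESeq2, 0 by limma). Of 25 tested, 19 had a log2 change above 0, 4 did not overlap and were higher, 1 was lower, and the median of 0.16 went to -0.03 with limma on log2(TPM + 1). Bckdha, a subunit of the committing dehydrogenase, had 102, 98.6 and 108 FPKM without leucine and 118, 97.2 and 101 with it (log2 change 0.19, adjusted p = 0.562). Its inhibiting kinase Bckdk had 22.1, 14.6 and 23.8 against 14.6, 18.2 and 14.2 FPKM, and its activating phosphatase Ppm1k 2.005, 4.51 and 1.81 against 3.79, 2.03 and 3.03. For both, the samples of one group lie among those of the other. Ivd, isovaleryl-CoA dehydrogenase of the leucine pathway, had 55.6, 66 and 54.3 against 65.97, 71.99 and 67.7 FPKM (log2 change 0.37, adjusted p = 0.283), and Mccc1, of the next step, had 11.7, 16.6 and 12.6 against 16.9, 17.5 and 16.9 (adjusted p = 0.296). Mcee, a later enzyme of valine and isoleucine breakdown, had 40.3, 41.3 and 42.7 against 52.9, 43.5 and 54.1 FPKM (adjusted p = 0.165). The transaminases were low, with Bcat2 at 2.43, 1.69 and 2.75 FPKM without and 1.98, 2.73 and 0.972 with leucine, and Bcat1 at 0.138, 0.114 and 0.131 without and 0, 0 and 0.02302 with leucine (adjusted p = 0.33).

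Leucine sensing and mTORC1 genes gave 0 calls among 41 in edgeR (5 at an unadjusted p below 0.05, 1 by DESeq2, 0 by limma), with 25 above 0, 5 and 4 that did not overlap and were higher and lower, and a median of 0.06. Sar1b, a small GTPase that also takes part in leucine sensing, had 81.8, 73.9 and 88.1 FPKM without leucine and 100.1, 97.5 and 119 with it (log2 change 0.54, adjusted p = 0.107). Mtor, the kinase, had 3.92, 3.73 and 3.65 against 3.45, 4.19 and 3.92 FPKM (log2 change 0.19, SE 0.13), and the ranges overlap. Sesn2, a Sestrin, had 6.99, 7.07 and 6.72 against 6.32, 4.04 and 2.36 FPKM (adjusted p = 0.64). Depdc5 and Mios belong to the complexes that hold mTORC1 off or relieve that hold, and had 1.95, 1.61 and 1.62 against 1.94, 2.61 and 2.13 and 1.97, 2.54 and 2.12 against 1.49, 1.62 and 1.28 FPKM. Eif4ebp1 and Eif4ebp2 encode translation inhibitors that mTORC1 phosphorylates. Eif4ebp1 had 48.8, 34.5 and 61.3 against 32, 21.3 and 40.9 FPKM, and Eif4ebp2 16.2, 18.3 and 18.7 against 22.1, 22.3 and 25.2 (adjusted p = 0.522 and 0.255). Ddit4, an mTORC1 inhibitor, overlapped at 4.98, 2.35 and 3.19 against 3.17, 2.65 and 2.12 FPKM. These are transcript levels, and the activity of the complex was not measured.

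Atf4 is the transcription factor of the response to missing amino acids. It had 144, 95.7 and 114 FPKM without leucine and 64.2, 69.5 and 56.7 with it, without overlap (log2 change -0.73, adjusted p = 0.0846). Among 22 genes of its response edgeR called 0 (7 at an unadjusted p below 0.05, 7 by DESeq2, 1 by limma), 10 lay above 0, and the median was -0.06, which reached 0.07 without leucine replicate 2. Asns, asparagine synthetase, had 0.975, 0.209 and 0.669 against 0.409, 0.4 and 1.53 FPKM, Trib3, a pseudokinase, had 2.77, 1.702 and 4.86 against 2.35, 1.07 and 4.201, and both overlapped. Aldh1l2, a mitochondrial folate enzyme, had 15.1, 23.6 and 18.97 against 36.9, 37.1 and 46.8 FPKM (log2 change 1.21, adjusted p = 0.1). Gdf15, a stress hormone that lowers appetite, had 12.7, 20.7 and 19.4 FPKM without leucine, 1.61, 3.63 and 0.668 with it and 8.19, 2.58 and 3.03 in controls (log2 change -3.02, adjusted p = 0.066). Its samples without leucine all lie above the others.

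Amino acid transporters gave 0 calls among 26 in edgeR (8 at an unadjusted p below 0.05, 5 by DESeq2, 1 by limma), with 13 above 0 and a median of 0.04. Slc38a4, a liver carrier of small neutral amino acids, had 118, 170.4 and 151 FPKM without leucine and 278, 238 and 258 with it (log2 change 0.97, adjusted p = 0.0547). Slc16a10, a carrier of aromatic amino acids, had 2.18, 3.65 and 3.18 against 6.95, 8.398 and 12.3 FPKM (adjusted p = 0.0806). Lower with leucine without overlap were Slc38a2, at 24.9, 17.95 and 19.8 against 13.8, 8.71 and 11.03 FPKM, and the taurine carrier Slc6a6, at 3.35, 3.997 and 1.47 against 0.887, 0.872 and 0.435 FPKM (adjusted p = 0.0903 and 0.146).

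**Figure D2:**
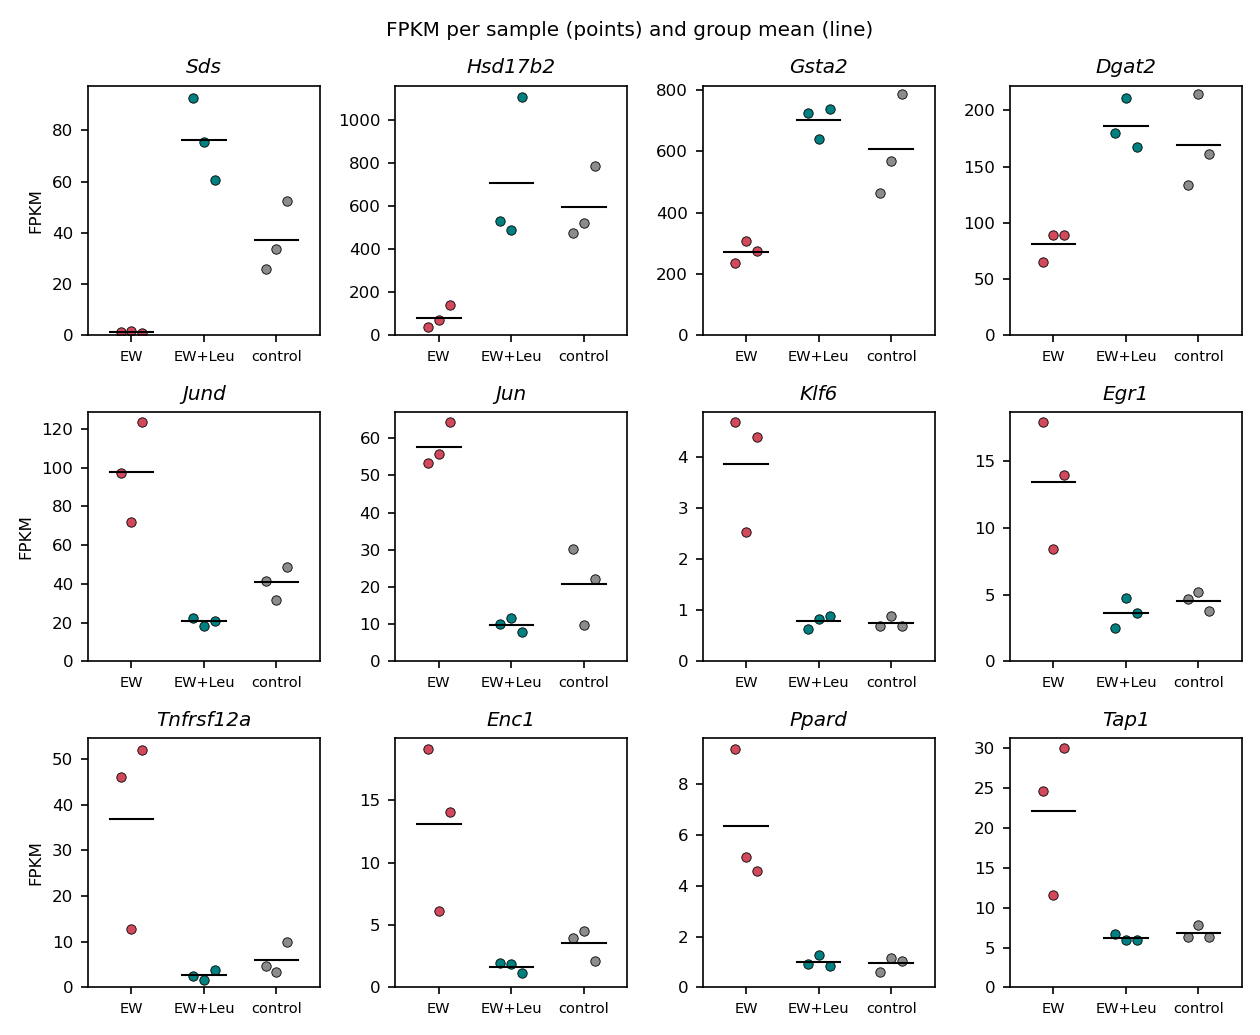
FPKM of 12 called genes in each early weaned sample without leucine (EW), with leucine (EW+Leu) and in each control, on linear axes from 0. Points are samples and the line is the group mean. In every panel the 3 points with leucine lie clear of the 3 without, above them for Sds, Hsd17b2, Gsta2 and Dgat2 and below them for the other 8.

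Among clock genes and their outputs 3 rose. Hlf, an output factor that binds D-box sites, had 1.92, 2.15 and 2.27 FPKM without leucine, 10.2, 8.62 and 9.77 with it and 10.7, 6.01 and 8.74 in controls. The samples of each early weaned group are close together, and those without leucine lie below every control. The mean was 4.503-fold higher with leucine (log2 change 2.32, SE 0.23, adjusted p = 0.00908 in edgeR). Tef, a related factor, had 5.18, 5.28 and 9.47 against 14.5, 14.5 and 21.6 FPKM (log2 change 1.51, SE 0.25, adjusted p = 0.0492), with controls at 17.8, 16.8 and 21.7. Cry2, a repressor of the clock, had 3.77, 4.08 and 5.61 against 11.2, 11.5 and 13.3 FPKM (log2 change 1.58, SE 0.19, adjusted p = 0.0189), and controls lay between the groups at 6.499, 6.77 and 8.91.

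Dbp, the third factor of the Hlf and Tef family, missed the threshold with a larger difference. It had 0.871, 0.993 and 14.6 FPKM without leucine, 81.5, 67.8 and 175 with it and 72.6, 68.6 and 139 in controls (log2 change 4.497, SE 1.048, adjusted p = 0.0867). Early weaned replicate 3 without leucine stands apart from the other two of its group, here and for Nr1d1 and Per3. Nr1d1, a repressor of Arntl, had 14.2, 17.3 and 53.8 against 76.9, 69.96 and 81.4 FPKM, and Per3 had 0.104, 0.152 and 0.666 against 1.98, 2.28 and 4.44 (adjusted p = 0.121 and 0.0614). Per2 had 1.76, 2.599 and 2.62 against 6.03, 6.83 and 8.36 FPKM (log2 change 1.75, adjusted p = 0.0568), and Usp2, a deubiquitinase with a daily rhythm, 2.32, 0.612 and 1.94 against 4.77, 5.696 and 8.22 (adjusted p = 0.0589). Bhlhe41, a repressor, was at 0 in 2 samples without leucine and had 0.376, 0.459 and 1.74 FPKM with it (adjusted p = 0.0614).

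Activators of the clock lay on the other side. Npas2 had 13.7, 9.41 and 9.55 FPKM without leucine, 3.26, 2.75 and 0.841 with it and 2.19, 1.47 and 1.68 in controls (log2 change -2.09, adjusted p = 0.0614). Arntl had 10.6, 10.3 and 7.21, 2.78, 3.45 and 0.545 and 3.23, 1.89 and 1.11 in the same order (log2 change -1.91, adjusted p = 0.179). Neither overlapped between the early weaned groups. Per1 at 10.1, 3.31 and 5.91 against 6.67, 8.15 and 4.79 FPKM and Cry1 at 1.53, 2.08 and 0.627 against 1.92, 1.17 and 1.66 overlapped. Clock itself had 0.506, 0.673 and 0.282 against 0.459, 0.469 and 0.265 FPKM, also overlapping, while its controls had 2.56, 2.55 and 2.22. Of 19 core clock genes 12 lay above 0 with 1 called, and of 17 output genes 10 with 2 called. The median was 0.30 for the core genes and 0.19 for the outputs, and the latter went to -0.12 without early weaned replicate 2. The labels give no time of collection, so time of day and leucine cannot be told apart for these genes. The same limit holds for any other gene reported here that follows a daily rhythm.

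**Figure D3:**
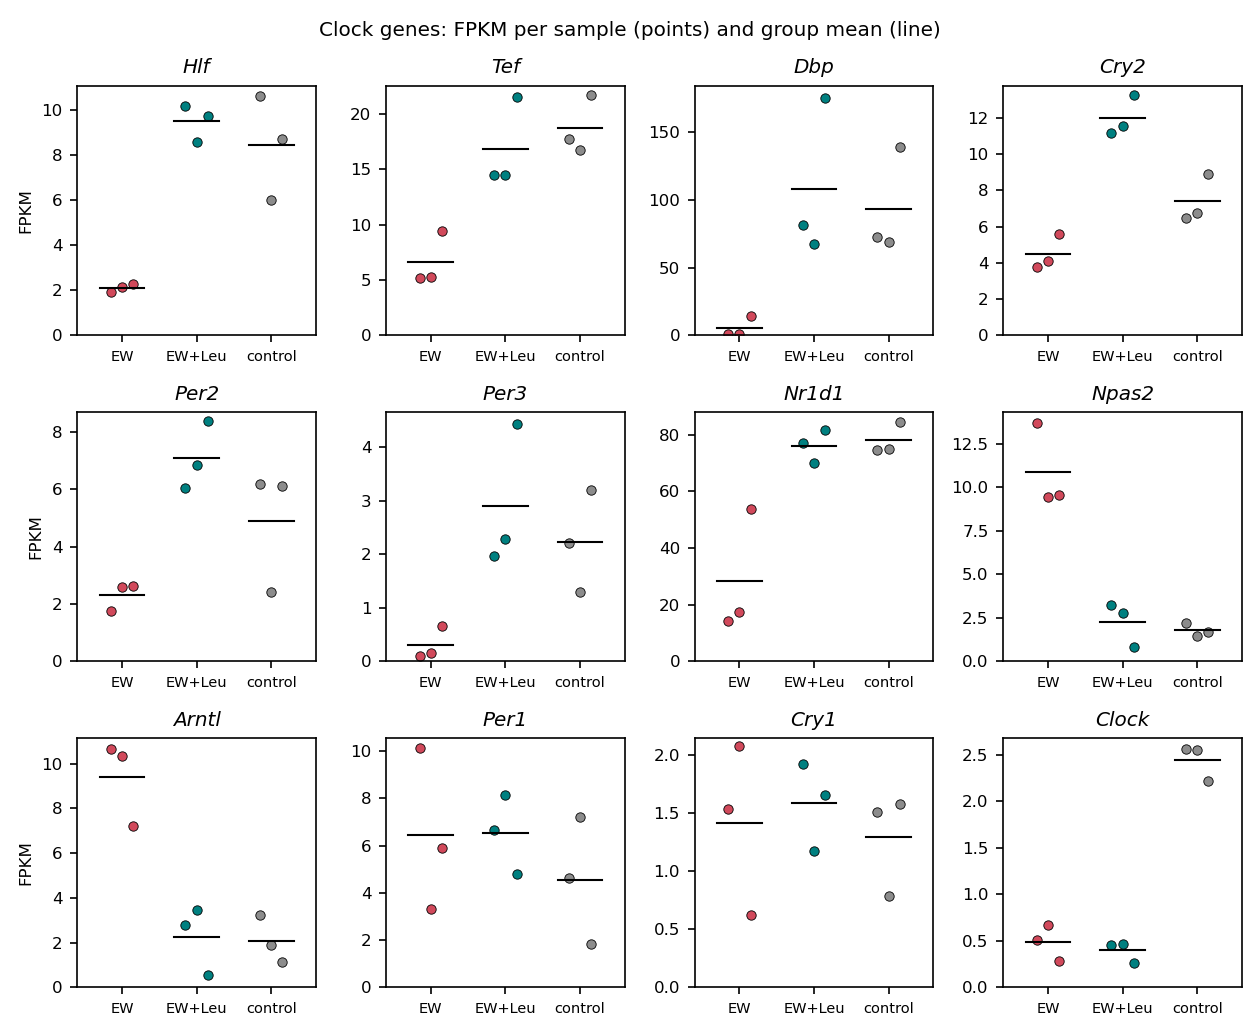
FPKM of 12 clock genes per sample (points) with the group mean (line), on linear axes from 0, for early weaned rats without (EW) and with leucine (EW+Leu) and controls. Hlf, Tef, Dbp, Cry2, Per2, Per3 and Nr1d1 are higher in all samples with leucine than in all without, Npas2 and Arntl are lower, and Per1, Cry1 and Clock overlap.

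Immediate-early genes were mostly lower with leucine. Of 35 tested, 32 had a log2 change below 0, 5 fell, 16 did not overlap and were lower, 0 did not overlap and were higher, and the median was -0.92. DESeq2 called 13, all lower. The median stayed between -1.13 and -0.60 in every alternative setting. Jund, an AP-1 subunit, had 97.4, 72.1 and 123 FPKM without leucine, 22.6, 18.5 and 21.1 with it and 41.7, 31.8 and 48.6 in controls. The mean was 4.71-fold lower with leucine and the log2 change -2.07 (SE 0.20, adjusted p = 0.00908 in edgeR). Its partner Jun had 53.3, 55.7 and 64.2 against 10.2, 11.6 and 7.87 FPKM (log2 change -2.39, SE 0.33, adjusted p = 0.0294), and its controls were spread from near the leucine samples upward, at 30.3, 9.799 and 22.2. For both genes all samples without leucine exceed all controls.

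Klf6, a zinc finger factor induced by injury, had 4.67, 2.54 and 4.39 FPKM without leucine and 0.625, 0.836 and 0.887 with it, and controls had 0.688, 0.894 and 0.686 (log2 change -2.12, adjusted p = 0.0225). Ier5, an immediate-early regulator of the heat shock response, had 17.9, 10.5 and 29.5 against 4.68, 3.54 and 3.31 FPKM (log2 change -2.15, adjusted p = 0.0343). Egr1, a factor induced by growth factors, had 17.9, 8.42 and 14.01 against 2.48, 4.79 and 3.64 FPKM (log2 change -1.71, adjusted p = 0.0492). In these 3 genes early weaned replicate 2 is the lowest of the samples without leucine.

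Several genes of the same list were close to the threshold. Btg2, a brake on cell division, had 21.2, 12.5 and 29.9 FPKM without leucine and 3.31, 6.24 and 4.76 with it (adjusted p = 0.0507). Myc, a growth factor response gene, had 17.2, 6.67 and 11.2 against 2.699, 0.924 and 1.76 FPKM (log2 change -2.52, adjusted p = 0.0547). Atf3, a stress-induced factor, had 1.89, 0.684 and 5.82 against 0.481, 0.277 and 0.1404 FPKM (log2 change -3.01, adjusted p = 0.0916), and Junb 30.5, 30.6 and 48.2 against 14.1, 10.8 and 21.6 (adjusted p = 0.132). These 4 did not overlap. Fos, the usual partner of Jun, was low and overlapped, at 3.302, 1.47 and 0.891 FPKM without leucine and 0.673, 0.563 and 1.41 with it (adjusted p = 0.684).

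Promoters of 34 of the 54 called genes, 16 that rose and 18 that fell, were in the RefSeq promoter table of build GRCr8. The 250 bases before each start site were searched on both strands for 4 motifs. These were the E-box CACGTG of Clock and Arntl, the D-box TTANGTAA of the Hlf, Tef and Dbp family, the AP-1 site TGANTCA and the cAMP response element TGACGTCA. The E-box stood in 3 of the 16 rises (Irx1, Klf15 and Tef) and in 1 of the 18 falls (Klf6), and in 5.59% of all 33469 promoters. The D-box stood in Phlda3 alone of the 34 and in 2.04% of all promoters. The AP-1 site was found in 1 fall, LOC100360491, and in 6.34% of all promoters, and the cAMP response element in 2 falls, Jund and Tubb2a, and in 1.59%. A match describes letters in this window only. The windows of the 4 transcription factor genes that the clock and immediate-early results turn on, or that regulate metabolism, are shown 5′ to 3′, with the motif in capitals. Tef (chr7:115206577-115206826, plus strand) and Klf15 (chr4:124522765-124523014, plus strand) rose, and Klf6 (chr17:69458479-69458728, minus strand) and Jund (chr16:18769772-18770021, minus strand) fell. The motif begins 198, 101, 56 and 221 bases before the start site in that order.
Tef: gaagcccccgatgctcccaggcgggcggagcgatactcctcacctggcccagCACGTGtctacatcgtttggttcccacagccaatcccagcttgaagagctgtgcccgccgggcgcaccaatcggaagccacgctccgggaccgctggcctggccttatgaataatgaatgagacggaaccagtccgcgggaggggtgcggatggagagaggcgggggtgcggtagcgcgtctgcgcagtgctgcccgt
Klf15: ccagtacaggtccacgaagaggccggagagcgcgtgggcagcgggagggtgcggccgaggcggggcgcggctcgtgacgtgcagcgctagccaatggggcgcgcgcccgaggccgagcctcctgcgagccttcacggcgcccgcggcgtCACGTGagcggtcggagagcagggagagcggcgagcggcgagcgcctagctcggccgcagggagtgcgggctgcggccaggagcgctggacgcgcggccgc
Klf6: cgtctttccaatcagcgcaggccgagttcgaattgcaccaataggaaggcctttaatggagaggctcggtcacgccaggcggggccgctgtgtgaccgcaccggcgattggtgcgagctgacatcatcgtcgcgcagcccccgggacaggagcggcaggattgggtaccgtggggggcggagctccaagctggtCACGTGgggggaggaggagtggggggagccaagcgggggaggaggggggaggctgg
Jund: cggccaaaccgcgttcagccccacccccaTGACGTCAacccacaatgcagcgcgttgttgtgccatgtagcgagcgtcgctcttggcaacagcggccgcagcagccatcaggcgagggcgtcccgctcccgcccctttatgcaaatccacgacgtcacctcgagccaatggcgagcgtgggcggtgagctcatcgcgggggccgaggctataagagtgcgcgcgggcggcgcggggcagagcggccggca

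Genes of the injury and growth factor response gave 3 falls and 1 rise among 32. Tnfrsf12a, the receptor of the cytokine TWEAK, which appears on injured hepatocytes and bile duct cells, had 46.04, 12.9 and 52.1 FPKM without leucine, 2.47, 1.66 and 3.71 with it and 4.66, 3.48 and 10.05 in controls. Replicate 2 without leucine, the lowest of its group, still lies above every sample with leucine and every control. The mean was 14.2-fold lower with leucine (log2 change -3.63, SE 0.58, adjusted p = 0.0448 in edgeR). Enc1, an actin-binding protein, had 19.1, 6.12 and 14.03 against 1.92, 1.87 and 1.15 FPKM (log2 change -2.804, adjusted p = 0.0374). Pdgfa, a growth factor for stellate cells, had 6.13, 2.32 and 6.69 against 0.776, 0.795 and 1.06 FPKM (log2 change -2.33, adjusted p = 0.0432), and in both genes replicate 2 is again the lowest without leucine. Edar, a receptor of the TNF receptor family, rose from 3.46, 1.67 and 2.78 to 8.09, 7.22 and 5.797 FPKM, and controls had 4.11, 3.15 and 3.19 (log2 change 1.59, adjusted p = 0.0352). The median of the list was -0.14, with 11 genes above 0.

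Ocln, Nectin2, Ajuba, Tubb2a and Slc34a2 fell, and as a set they were chosen after their values were seen and not tested. Ocln, the tight junction protein occludin, had 14.02, 7.39 and 11.4 FPKM without leucine and 3.71, 4.24 and 3.58 with it (log2 change -1.34, adjusted p = 0.037). Its controls had 4.81, 4.44 and 3.62 FPKM, near the samples with leucine. Nectin2, an adhesion protein, had 69.3, 36.2 and 72.6 against 19.3, 21.2 and 19.04 FPKM (log2 change -1.41). Ajuba, a junction-associated adaptor, had 13.5, 8.28 and 11.1 against 3.34, 2.92 and 3.36 FPKM, and the tubulin Tubb2a 85.7, 64.2 and 67.9 against 28.9, 25.9 and 15.7 (log2 change -1.601 and -1.47). Adjusted p for these 3 ran from 0.0294 to 0.0389. Slc34a2, a phosphate carrier made by bile duct cells, had 67.6, 21.4 and 29.5 FPKM without leucine, 4.57, 5.02 and 1.89 with it and 13.4, 9.88 and 4.76 in controls (log2 change -3.19, SE 0.54, adjusted p = 0.0492). The mean was 10.3-fold lower with leucine.

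Beside these falls stand the markers of other cells. The bile duct list, which holds Slc34a2, summed to 44.9 to 104 FPKM without leucine, 25.1 to 32.3 with it and 26.8 to 38.9 in controls, and 4 of its 10 tested genes lay above 0. Epcam, a surface marker of bile duct cells, had 24.5, 13.95 and 28.3 FPKM without leucine and 7.63, 13.2 and 8.73 with it (log2 change -1.002, adjusted p = 0.124). Spp1 had 0.9698, 0.814 and 1.04 against 1.52, 1.19 and 2.002 FPKM (adjusted p = 0.271), and the defining keratin Krt19 overlapped at 1.36, 1.14 and 1.09 against 0.8397, 0.8996 and 2.17. In whole liver RNA, fewer cells of a type and less RNA per cell cannot be told apart, and the part of bile duct cells in these results was not tested.

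Pnrc1, Rcan2 and Phlda3 fell and belong to no list. Pnrc1, a coactivator of nuclear receptors, had 70.8, 46.3 and 62.7 FPKM without leucine, 17.8, 13.7 and 12.1 with it and 19.9, 24.6 and 17.9 in controls (log2 change -1.87, SE 0.20, adjusted p = 0.0135 in edgeR). Rcan2, a calcineurin inhibitor, had 8.07, 5.61 and 8.76 against 2.81, 3.202 and 2.502 FPKM, and Phlda3, a protein that restrains Akt, 50.99, 33.4 and 54.1 against 20.5, 18.5 and 16.4 (log2 change -1.23 and -1.15).

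Gfra3, a receptor of the GDNF family, had 5.89, 5.71 and 5.22 FPKM without leucine and 2.45, 1.801 and 1.52 with it (log2 change -1.38). Tbc1d8, a protein with a domain that acts on Rab GTPases, had 6.48, 5.89 and 7.37 against 3.76, 2.94 and 3.19 FPKM (log2 change -0.84), and 979 of its bases are shared with Rpl31 on the opposite strand. Less is known of the others. Ccdc120 had 4.78, 2.99 and 5.595 against 1.23, 0.859 and 1.11 FPKM, Lurap1l 39.7, 29.02 and 45.98 against 12.1, 10.02 and 14.8, and RGD1305464 4.66, 4.04 and 4.56 against 2.25, 1.82 and 1.48 (log2 change -1.88, -1.46 and -1.09).

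A pair of fallen entries is uncertain. LOC100360491, annotated as like the ribosomal protein gene L13, whose copies may share reads, had 25.2, 10.3 and 23.2 FPKM without leucine and 2.52, 3.34 and 2.35 with it (log2 change -2.65, adjusted p = 0.0189). AC128792, a miRNA entry of 106 bases, had 449, 391 and 588 FPKM without leucine, 111, 83.6 and 82.5 with it and 551, 798 and 907 in controls (log2 change -2.202, adjusted p = 0.013). It shares 91 bases with LOC100360087, a ferritin light chain copy on the same strand, which overlapped between groups at 1796, 1409 and 1875 against 1734, 1451 and 2060.1 FPKM. Controls lie on the side of the samples without leucine for AC128792, unlike for Sds, Hlf or Klf6.

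Among the falls, early weaned replicate 2 most often lay nearest to the samples with leucine. Of the 27 falls, it was the lowest of the 3 samples without leucine in 24. Of the 27 rises, it was the highest in 9, among them Cda, where all 3 were at 0. Over the 54 calls, replicates 1, 2 and 3 without leucine were nearest in 9, 33 and 14, with Cda counted for each. How often this holds over all genes tested was not counted. Without early weaned replicate 2, 539 genes were called (3.48% of 15490), 221 rises and 318 falls, and all 54 were among them. Without early weaned replicate 1 only Sds was called, and without replicate 3, 21 genes, 13 of them among the 54. Leaving out leucine replicate 1, 2 or 3 gave 8, 6 and 18 calls, of which 5, 3 and 9 were among the 54. Leaving out control replicate 1, 2 or 3 gave 34, 26 and 44, of which 26, 23 and 35 were. Of the 54, Sds was called in all 6 fits that left out an early weaned sample, Hlf and Jund in 5, AC128792 and Pnrc1 in 4, 12 genes in 2 and 37 in 1. All 54 kept their direction in each of these fits. Among the called genes the median coefficient of variation was 22.4% without leucine and 14.8% with it.

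**Figure D4:**
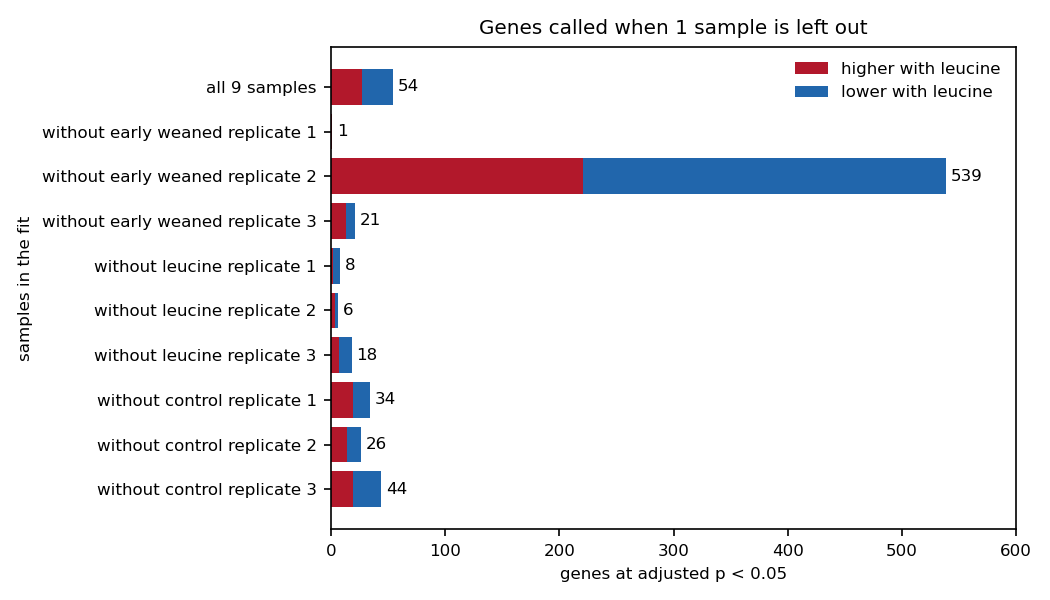
Number of genes called (horizontal axis, adjusted p below 0.05 in edgeR) with all 9 samples and when 1 sample is left out, split into genes higher (red) and lower (blue) with leucine. The count is 54 with all samples, 1 without early weaned replicate 1 and 539 without early weaned replicate 2.

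Early weaned replicate 2 stands apart in 4 uncalled genes, which were grouped after their values were seen. Neurl3, a ubiquitin ligase, had 42.9, 6.24 and 68.9 FPKM without leucine and 1.81, 1.81 and 1.87 with it (adjusted p = 0.0525), and Gstm3l, a glutathione transferase, 93.2, 6.82 and 128 against 1.21, 1.69 and 2.79 (adjusted p = 0.0547). Gbp5, an interferon-induced GTPase, had 13.2, 1.36 and 11.5 against 0.615, 0.482 and 0.329 FPKM, and Cyp2c24, a cytochrome P450, 6.38, 0.0899 and 4.18 against 0, 0.0334 and 0 (adjusted p = 0.0614 and 0.0865). In these 4, replicates 1 and 3 without leucine are at least several-fold above replicate 2, most of all for Cyp2c24. Replicate 2 lies nearer to the samples with leucine.

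Interferon and antigen processing genes were mostly lower with leucine, and 1 of 42 fell. Of the 42, 36 had a log2 change below 0, 13 did not overlap and were lower, 1 did not overlap and was higher, and the median was -0.44. DESeq2 called 12, all lower, and edgeR without early weaned replicate 2 called 13, all lower. Tap1, which carries peptides to MHC class I, had 24.7, 11.6 and 30.1 FPKM without leucine, 6.67, 5.905 and 5.996 with it and 6.36, 7.79 and 6.27 in controls (log2 change -1.66, SE 0.27, adjusted p = 0.0492 in edgeR). Its partner Tap2 had 15.4, 7.902 and 16.6 against 5.56, 5.57 and 4.63 FPKM, and the antiviral GTPase Mx2 18.2, 13.8 and 19.4 against 9.54, 7.03 and 7.004 (adjusted p = 0.0614 and 0.0547), neither overlapping. Lymphocyte markers summed to 17.9 to 28.1 FPKM without and 14.1 to 23.2 with leucine, with 4 of 16 above 0 and 0 calls (0 at an unadjusted p below 0.05, 0 by DESeq2, 0 by limma). Gzma, of cytotoxic cells, had 4.12, 1.99 and 3.297 against 1.95, 1.43 and 2.14 FPKM, Cd8a 2.56, 2.23 and 3.91 against 1.68, 1.47 and 2.27, Cd2 0.506, 1.13 and 1.598 against 0.449, 0.154 and 0.799 and Cd4 5.65, 5.3 and 4.798 against 6.25, 5.03 and 6.904, all overlapping. The defining T cell gene Cd3e was at 0.715, 0.583 and 0.734 without and 0, 0.441 and 0.889 with leucine. Of 6 neutrophil markers tested 1 lay above 0, with 0 calls (0 at an unadjusted p below 0.05, 0 by DESeq2, 0 by limma), and the list summed to 5.57 to 21.7 FPKM without and 6.97 to 7.38 with leucine, S100a8 having 3.14, 0.607 and 1.48 against 0.634, 0.696 and 1.11 and S100a9 5.92, 1.65 and 3.25 against 0.747, 1.78 and 1.81. The part of these cells in the result was not tested.

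Acute phase proteins, which the liver secretes in inflammation, gave 0 calls among 22 in edgeR (4 at an unadjusted p below 0.05, 3 by DESeq2, 1 by limma), with 10 above 0 and a median of -0.01. Cp, ceruloplasmin, had 763, 521 and 712 FPKM without leucine and 348, 341 and 338 with it (log2 change -0.79, adjusted p = 0.0545), and Lbp, which binds bacterial lipopolysaccharide, 173, 62.3 and 198 against 42.6, 25.6 and 42.4 (adjusted p = 0.0685). Neither overlapped. Hamp, the iron hormone hepcidin, was higher with leucine at 618, 924 and 484 against 1176, 1262 and 1579 FPKM (log2 change 1.12, adjusted p = 0.0881). Of 17 liver-made hormones, a list that holds Hamp, Gdf15, Fgf21, Angptl4 and Igfbp1, 11 lay above 0 with a median of 0.15 and 0 calls (6 at an unadjusted p below 0.05, 4 by DESeq2, 1 by limma). Lcn2 had 4.77, 1.32 and 11.8 against 1.74, 1.64 and 0.525 FPKM and the IL-6 receptor Il6r 18.98, 14.5 and 23.4 against 28.9, 30.3 and 19.96, both overlapping.

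Cholesterol synthesis, which the series' title names, had mostly lower genes with leucine, and edgeR called 0 of 21 (7 at an unadjusted p below 0.05, 2 by DESeq2, 0 by limma). Of the 21, 18 had a log2 change below 0, 7 did not overlap and were lower, 0 did not overlap and were higher, and the median was -0.66, between -0.85 and -0.46 over all settings. Hmgcs1, which makes the precursor of mevalonate, had 329, 237 and 422 FPKM without leucine, 85.8, 167 and 91.5 with it and 162, 45.6 and 50.04 in controls (log2 change -1.35, SE 0.46, adjusted p = 0.231). Mvk and Pmvk phosphorylate mevalonate. Mvk had 18.9, 13.1 and 30.7 against 9.14, 12.01 and 10.6 FPKM, and Pmvk 87.1, 58.6 and 87.8 against 38.7, 53.1 and 25.3 with controls at 26.9, 16.4 and 22.3 (adjusted p = 0.183 for both). Cyp51, a later enzyme, had 142, 101 and 189 against 58.9, 93.5 and 82.1 FPKM and did not overlap (adjusted p = 0.304). Sqle, squalene epoxidase, overlapped at 35.8, 19.9 and 44.4 against 9.05, 21.9 and 12.4 (adjusted p = 0.345).

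Sterol sensing genes gave 0 calls among 13 in edgeR (4 at an unadjusted p below 0.05, 1 by DESeq2, 0 by limma), with 5 above 0. Srebf2, the factor that switches on cholesterol synthesis, had 19.99, 15.1 and 20.6 FPKM without leucine and 11.8, 14.9 and 10.3 with it (log2 change -0.43, adjusted p = 0.345). Mylip, a ligase that removes lipoprotein receptors, had 0.922, 0.921 and 0.802 against 1.39, 1.56 and 1.78 FPKM, and Mbtps2, a protease that activates Srebf2, 1.41, 1.03 and 0.855 against 0.431, 0.739 and 0.654 (adjusted p = 0.087 and 0.275). Neither overlapped, and they lie on opposite sides.

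Genes of sterol efflux and lipoproteins lay on the higher side. Of 27, 22 had a log2 change above 0, 13 did not overlap and were higher, 0 did not overlap and were lower, and the median was 0.34. EdgeR called 0 of them (11 at an unadjusted p below 0.05, 7 by DESeq2, 0 by limma). Abcg5, which pumps sterols into bile, had 0.272, 1.04 and 0.322 FPKM without leucine, 2.46, 2.66 and 11.3 with it and 5.61, 5.46 and 10.7 in controls (log2 change 3.44, adjusted p = 0.0806). Npc1, which releases cholesterol from lysosomes, had 12.6, 15.3 and 12.6 against 21.95, 23.2 and 27.9 FPKM (log2 change 0.998, adjusted p = 0.0545). Its controls had 14.4, 14.8 and 11.3 FPKM, near the samples without leucine. Abca1, the efflux pump that loads apolipoprotein, had 5.28, 6.72 and 5.89 against 7.52, 7.97 and 7.196 FPKM, without overlap (adjusted p = 0.173). Of the apolipoproteins, Apoc4 had 501, 526 and 432 against 633, 727 and 805 FPKM and Apof 117, 29.1 and 151 against 279.9, 259 and 448 (adjusted p = 0.0855 and 0.104), while Apob overlapped at 185, 212 and 188 against 215, 186 and 182.

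Bile acid genes, the other route by which cholesterol leaves the liver, had 20 of 25 above 0, 8 that did not overlap and were higher, 2 that were lower, and a median of 0.37. EdgeR called 0 (10 at an unadjusted p below 0.05, 7 by DESeq2, 0 by limma). Cyp7a1, the rate-limiting enzyme, overlapped at 14.2, 9.26 and 23.03 FPKM without leucine and 24.9, 106 and 10.8 with it (adjusted p = 0.318), where leucine replicate 2 alone is high. Acox2, which shortens the side chain, had 61.8, 151 and 86.1 against 235, 282 and 245 FPKM, and Scp2, a sterol carrier, 249.6, 305 and 218 against 355, 343 and 372 (adjusted p = 0.0685 and 0.138). Akr1c14 had 213, 224 and 229.9 against 309, 404 and 326 FPKM (adjusted p = 0.0846). Abcb4, which moves phospholipid into bile, was lower with leucine at 29.4, 9.03 and 31.7 against 8.21, 5.35 and 7.69 FPKM (adjusted p = 0.0983).

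Fatty acid beta-oxidation, also named in the title, gave 0 calls among 19 mitochondrial genes in edgeR (1 at an unadjusted p below 0.05, 0 by DESeq2, 0 by limma). Their median was 0.18, and -0.01 with limma on log2(TPM + 1), with 14 above 0, 1 that did not overlap and was higher and 1 lower. Cpt1a, the carnitine transferase that sets the rate of entry, overlapped at 43.98, 41.4 and 56.4 FPKM without leucine and 33.8, 33.02 and 112 with it, and controls had 84.8, 76.6 and 87.3. Leucine replicate 3 alone is high, and without it the log2 change of 0.50 became -0.34. Hadha, of the trifunctional protein, had 79.2, 96.2 and 84.9 against 89.1, 87.1 and 118 FPKM, Hadh 185, 222 and 175 against 248, 217 and 250.1 and Decr1 97.1, 148 and 126 against 126, 129 and 231, all overlapping. Acsl1, which activates fatty acids, had 282, 429 and 261 against 349, 438 and 465 FPKM, and Etfb, an electron carrier, 236, 258 and 219.6 against 256, 262 and 268 (adjusted p = 0.454 and 0.406).

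Ppard, a nuclear receptor for fatty acids, was the gene that fell among 28 PPAR, peroxisomal and ketone genes. Its FPKM was 9.36, 5.11 and 4.58 without leucine, 0.927, 1.28 and 0.824 with it and 0.602, 1.17 and 1.05 in controls. Every sample without leucine is above every other sample, and the mean was 6.28-fold lower with leucine (log2 change -2.48, SE 0.35, adjusted p = 0.0294 in edgeR). Its relative Ppara, the main fatty acid receptor of hepatocytes, lay on the other side at 3.66, 2.91 and 3.69 against 6.09, 5.15 and 6.32 FPKM (log2 change 0.94, adjusted p = 0.269). Fabp1, the liver fatty acid carrier, had 2989, 3980.4 and 3379 against 4464, 5982 and 5934 FPKM, and Angptl4, a lipase inhibitor and PPAR target, 64.6, 60.6 and 30.4 against 19.2, 15.6 and 10.5 (adjusted p = 0.0903 and 0.109). Neither overlapped. Pdk4, a kinase that spares glucose, had 12.1, 22.4 and 9.8 against 11.3, 12.3 and 10.7 FPKM and the hormone Fgf21 11.2, 7.95 and 16.1 against 6.45, 6.26 and 11.4, both overlapping. The median of the list was -0.23, with 10 above 0.

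Dgat2, which catalyses the last step of triglyceride synthesis, was the gene that rose among 25 of fatty acid and triglyceride synthesis. It had 65.3, 88.9 and 89.04 FPKM without leucine, 179.8, 211 and 167 with it and 133, 214 and 161 in controls (log2 change 1.35, SE 0.23, adjusted p = 0.0492 in edgeR). Thrsp, a lipogenic regulator, had 351, 207 and 690.1 against 1342, 2429 and 779 FPKM (log2 change 2.04, adjusted p = 0.0867), with leucine replicate 2 highest. The same replicate was highest for Srebf1, the lipogenic factor, at 38.1, 67.6 and 54.5 against 90.4, 162 and 64.9 FPKM (adjusted p = 0.336). Fasn, fatty acid synthase, had 69.9, 42.9 and 87.9 against 45.4, 159 and 17.4 FPKM and Scd, the desaturase, 299, 48.6 and 102 against 114, 338 and 15.2. Both overlapped, and both had negative log2 changes without leucine replicate 2 and with limma on FPKM or TPM. Lpin2 had 8.66, 6.28 and 10.2 against 10.2, 10.6 and 14.3 FPKM (adjusted p = 0.289). The list's median of 0.29, with 16 above 0, went to -0.17 with limma on log2(FPKM + 0.1).

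Slc37a4, the carrier that brings glucose 6-phosphate to glucose 6-phosphatase, rose among 23 genes of glucose metabolism. Its FPKM was 96.3, 80.8 and 82.6 without leucine, 151, 120.0 and 139.9 with it and 135, 103 and 113 in controls (log2 change 0.82, SE 0.13, adjusted p = 0.0484 in edgeR). G6pc, the phosphatase itself, overlapped at 173, 77.5 and 144 against 170.3, 131 and 43.1 FPKM (log2 change -0.02), as did Pck1, of gluconeogenesis, at 895, 511 and 739 against 804, 300.4 and 482. Fbp1 had 255, 303 and 235 against 379, 326 and 429.7 FPKM and Gpi 58.2, 46.1 and 75.1 against 81.3, 89.5 and 83.4, neither overlapping (adjusted p = 0.143 and 0.0806). The list had 16 above 0 and a median of 0.24.

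Insulin signalling genes gave 0 calls among 20 in edgeR (2 at an unadjusted p below 0.05, 1 by DESeq2, 0 by limma), with 9 above 0 and a median of -0.10. Insr, the receptor, had 4.48, 6.22 and 4.38 FPKM without leucine and 5.68, 5.41 and 5.55 with it, and its substrates Irs2 and Irs3 had 1.97, 2.98 and 2.37 against 1.82, 1.64 and 1.83 and 13.2, 6.22 and 7.44 against 6.199, 9.17 and 3.08. Foxo3 had 1.75, 4.36 and 1.903 against 1.19, 1.06 and 1.23 FPKM and Sik1 4.59, 3.37 and 5.75 against 3.46, 3.06 and 2.36 (adjusted p = 0.354 and 0.459). Igfbp1, which insulin represses, did not overlap at 39.5, 11.7 and 31.5 against 7.52, 5.57 and 4.28 FPKM (log2 change -2.06, adjusted p = 0.108). The growth hormone list also gave 0 calls, among 16 (5 at an unadjusted p below 0.05, 2 by DESeq2, 0 by limma). Igf1 overlapped at 108, 126 and 122 against 137, 145 and 103 FPKM. Igfbp3 had 23.8, 23.6 and 25.05 against 31.4, 34.02 and 27 and Igfbp4 479, 390.5 and 488 against 506, 508 and 564 (adjusted p = 0.171 and 0.246). Socs2, a growth hormone target, had 13.8, 52.7 and 8.89 FPKM without leucine, 2.58, 3.83 and 2.14 with it and 21.01, 3.33 and 24.8 in controls (adjusted p = 0.139), replicate 2 without leucine being the high one. The list's median of -0.27 went to 0.05 without that replicate.

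Hsd17b2, which oxidises estradiol and testosterone to less active steroids, rose with 38.3, 69.2 and 139.6 FPKM without leucine, 529, 488 and 1103 with it and 474, 519 and 785 in controls. The lowest sample with leucine is over 3 times the highest without, the mean was 8.58-fold higher, and the log2 change was 3.27 (SE 0.50, adjusted p = 0.0416 in edgeR). Of 20 steroid genes 17 lay above 0, 6 did not overlap and were higher, and the median was 0.34. Sult2a1, a steroid sulfotransferase, had 18.6, 51.4 and 24.4 against 105, 91.9 and 94.6 FPKM (log2 change 1.75, adjusted p = 0.0806), and Akr1c12 381, 435 and 351 against 472, 437 and 546 (adjusted p = 0.204). Genes linked to glucocorticoids gave 0 calls among 17 in edgeR (4 at an unadjusted p below 0.05, 4 by DESeq2, 1 by limma). Among them Serpina6, the corticosteroid-binding globulin, had 214, 246 and 231 against 364, 362 and 419 FPKM (adjusted p = 0.0589). Sgk1 had 5.39, 4.697 and 3.72 against 6.63, 11.1 and 7.38 (adjusted p = 0.091). The cell cycle inhibitor Cdkn1a lay on the other side, at 69.04, 34.1 and 41.9 against 10.3, 4.75 and 6.44 (adjusted p = 0.0525).

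Gsta2 and Gsta5, glutathione transferases of the alpha class, rose side by side. Gsta2 had 235, 309 and 275 FPKM without leucine, 727, 639 and 737 with it and 464, 569 and 786 in controls (log2 change 1.51, adjusted p = 0.0344). Gsta5 had 384, 509 and 396, 1049.5, 1059 and 1091 and 691, 825 and 1029 in the same order (log2 change 1.46, adjusted p = 0.0294). They lie close together, at chr8:85640055-85645718 and chr8:85553734-85565179, and reads of such related genes may be shared. Over the whole list of 30, which holds both, 14 lay above 0 and the median was -0.09. Ephx1, an epoxide hydrolase, had 879, 497 and 1118 against 381, 312 and 321 FPKM (log2 change -1.12, adjusted p = 0.0924). Of 27 cytochromes P450 and receptors 20 lay above 0 and edgeR called 0 (12 at an unadjusted p below 0.05, 7 by DESeq2, 0 by limma). Cyp1a2 had 129, 132 and 129.6 against 264, 344 and 315 FPKM, Cyp2c7 461, 354 and 473 against 780.5, 1205 and 736 and Cyp3a62 9.72, 8.303 and 18.5 against 3.79, 1.28 and 4.51, none overlapping (adjusted p = 0.101, 0.118 and 0.107).

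Cda, cytidine deaminase, was at 0 in the 3 samples without leucine and had 0.998, 1.16 and 1.26 FPKM with it and 0.441, 0.771 and 1.02 in controls (adjusted p = 0.0484). Against a floor of 12 count units per library, taken as 3 fragments, it was at least 3.04-fold higher. Among 23 pyrimidine and nucleoside genes it was the only call, and Uox, urate oxidase, had 455, 479.9 and 525 against 691, 916 and 645 FPKM, Dpys 168, 187 and 163 against 235, 195 and 227 and Adk 125, 134 and 128 against 137, 159.9 and 154 (adjusted p = 0.087, 0.147 and 0.199). Gulo, the last enzyme of vitamin C synthesis, had 264, 254 and 231 FPKM without leucine, 369, 401 and 438 with it and 252, 299 and 276 in controls (log2 change 0.84, adjusted p = 0.0492). Enpp2, autotaxin, which makes lysophosphatidic acid, had 25.5, 28.2 and 25.2 against 61.2, 49.6 and 92.2 FPKM (log2 change 1.52, adjusted p = 0.0492). Osbpl11, an oxysterol-binding relative, had 6.43, 6.73 and 7.12 against 13.4, 18.3 and 13.2 FPKM (log2 change 1.299).

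Klf15, a transcription factor that promotes amino acid breakdown, had 18.2, 15.97 and 21.7 FPKM without leucine, 37.7, 32.7 and 36.9 with it and 26.7, 35.6 and 24.4 in controls (log2 change 1.104, SE 0.18, adjusted p = 0.0448 in edgeR). Jade1, a scaffold of a histone acetyltransferase, had 3.33, 3.39 and 4.14 against 6.63, 6.21 and 7.07 FPKM, and the forkhead factor Foxn2 2.34, 2.04 and 2.68 against 4.099, 4.95 and 4.72 (log2 change 1.03 and 1.13). Irx1, a homeobox factor, had 4.56, 4.61 and 4.01 against 7.57, 7.63 and 10.5 FPKM (log2 change 1.12). Rnf43, a ligase that removes Wnt receptors, had 2.33, 1.58 and 1.93 against 3.73, 4.94 and 3.49 FPKM, and the kinase Prkd3 9.896, 17.5 and 12.6 against 32.6, 33.2 and 33.8 (log2 change 1.22 and 1.45). The 3 samples with leucine lie within 2 FPKM of each other for Prkd3.

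The remaining rises are of genes less known in liver or of uncertain identity. Cabp2, a calcium-binding protein, had 45.8, 40.1 and 63.3 FPKM without leucine and 105, 105 and 80.1 with it, and Ankrd46 10.04, 14.8 and 13.9 against 29.8, 27.04 and 45.99 (log2 change 1.12 and 1.55). Kcnh1, a potassium channel, was below 1 FPKM in every sample, at 0.0676, 0.0749 and 0.126 against 0.572, 0.681 and 0.744 (log2 change 3.04, adjusted p = 0.037). LOC100360095, a urinary protein gene and the most abundant of those called, had 592, 1124 and 843 against 2559, 2709.8 and 3296 FPKM (log2 change 1.88, adjusted p = 0.0284), and related copies may share its reads. AC109891, a long non-coding RNA, had 1.804, 0.996 and 1.55 against 6.44, 5.45 and 4.802 FPKM (log2 change 2.11). LOC100911356, a copy of a peroxisome biogenesis gene, had 4.35, 3.99 and 3.99 against 8.98, 9.29 and 9.096 FPKM (log2 change 1.31). It lies wholly inside Ctif on the same strand, whose own FPKM overlapped at 7.48, 4.15 and 5.55 against 5.75, 7.43 and 3.92.

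Heat shock and unfolded protein genes were centred on 0, with 15 of 29 above it and 0 calls in edgeR (6 at an unadjusted p below 0.05, 1 by DESeq2, 0 by limma). Dnajb1 had 26.5, 15.3 and 23.5 FPKM without leucine and 12.2, 12.5 and 13.3 with it, and Hsp90aa1 34.3, 22.04 and 30.97 against 14.5, 16.6 and 19.1, both lower without overlap (adjusted p = 0.123 and 0.164). Dnaja1 had 130.1, 138 and 128 against 149, 148 and 171 FPKM and Bag3 20.9, 15.4 and 19.6 against 20.9, 22.7 and 18.4. Cell cycle genes gave 0 calls among 28 (4 at an unadjusted p below 0.05, 2 by DESeq2, 1 by limma), with 10 above 0 and a median of -0.09. Cdc20 had 1.44, 0.996 and 1.19 against 0.426, 0.601 and 0.405 FPKM and Mki67, which marks dividing cells, 0.256, 0.1097 and 0.109 against 0.0576, 0.0556 and 0.0601 (adjusted p = 0.122 and 0.311). The uncalled genes nearest the threshold that have not yet been given were Cdc42se1 (34.3, 22.7 and 34.3 against 14.6, 14.3 and 11.5 FPKM), Adamts5 (1.68, 1.97 and 1.28 against 0.196, 0.214 and 0.219), AABR07037307 (6.84, 7.21 and 5.48 against 17.9, 22.5 and 10.6) and Psen2 (52.8, 23.8 and 44.5 against 16.6, 13.97 and 11.6).

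**Figure D5:**
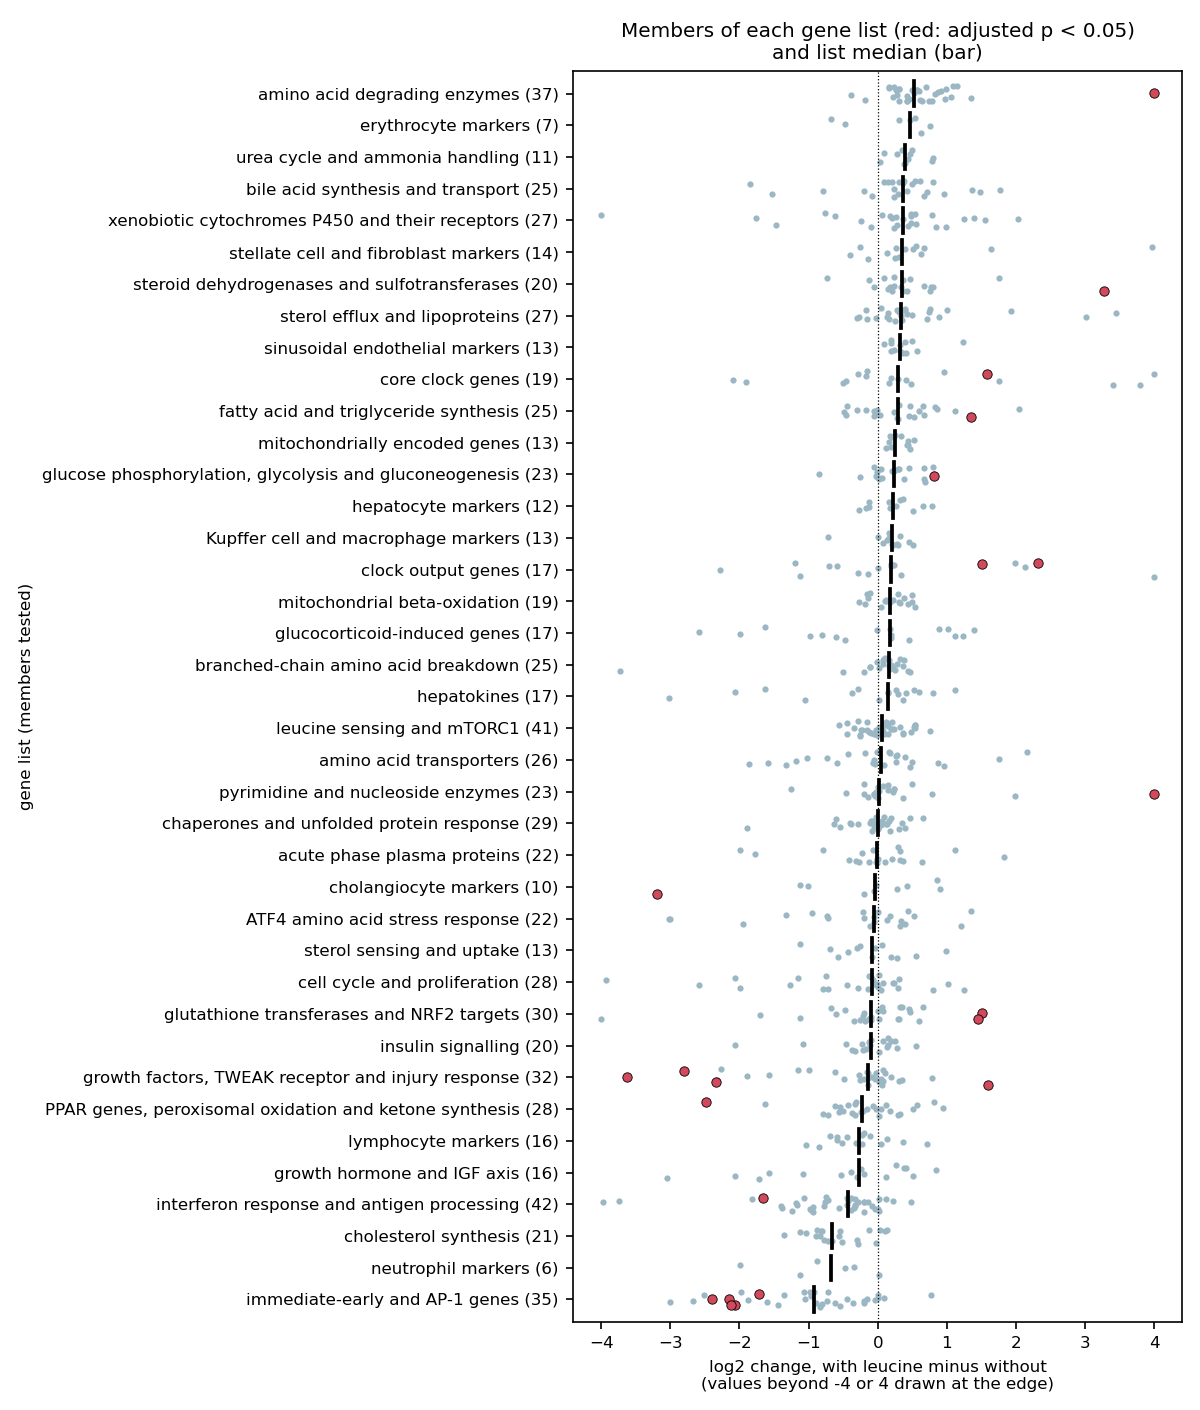
Fitted log2 change, with minus without leucine (horizontal axis), of every tested member (points) of each gene list with 6 or more tested members (vertical axis, with their number), ordered by the list's median (bar). Red points passed the test. The amino acid degrading enzymes have the highest median, 0.53, and the immediate-early genes the lowest, -0.92.

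Markers of other liver cells gave 0 calls in edgeR beyond Slc34a2. Of 13 Kupffer cell and macrophage genes 12 lay above 0 (0 at an unadjusted p below 0.05, 0 by DESeq2, 0 by limma), summing to 260.6 to 521 FPKM without and 307 to 439 with leucine. Clec4f, of Kupffer cells, had 72.3, 46.04 and 43.5 FPKM without leucine and 75.4, 51.8 and 70.7 with it, Cd68 23.7, 11.1 and 16.2 against 22.4, 14.2 and 19.8, and Adgre1 3.44, 2.27 and 2.99 against 3.43, 3.19 and 4.45. Lyz2, which lay below 0, had 39.5, 14.9 and 44.5 against 13.8, 16.7 and 22.4 FPKM, again with replicate 2 lowest without leucine. All 13 sinusoidal endothelial genes lay above 0 with a median of 0.33 (1 at an unadjusted p below 0.05, 0 by DESeq2, 0 by limma), Kdr having 7.81, 3.51 and 2.21 against 10.3, 7.53 and 10.4 FPKM, Clec4g 15.7, 13.8 and 11.1 against 17.8, 15.7 and 13.4, Stab1 3.001, 2.91 and 1.895 against 3.13, 3.26 and 2.45 and Tek 2.98, 1.88 and 1.72 against 3.28, 2.74 and 2.73. Of 14 stellate cell genes 11 lay above 0, with a median of 0.35 (3 at an unadjusted p below 0.05, 2 by DESeq2, 0 by limma). Col1a1, a collagen, had 1.03, 1.19 and 1.27 against 1.86, 4.58 and 3.36 FPKM (adjusted p = 0.156), Lum, Colec10 and Dcn had 0, 0 and 0.117 against 0.204, 0.72 and 0.801, 5.84, 7.67 and 4.56 against 6.86, 8.95 and 7.51 and 2.27, 2.65 and 3.25 against 3.84, 2.49 and 4.96. Of 7 red cell genes 5 lay above 0 (0 at an unadjusted p below 0.05, 0 by DESeq2, 0 by limma), and the list summed to 1215 to 3169 FPKM without and 1798 to 3224 with leucine, with Hbb at 886, 343 and 509 against 1109, 784 and 478, Hba-a2 at 722, 284 and 381 against 766, 546 and 463, Alas2 at 3.36, 1.29 and 1.75 against 3.997, 3.63 and 1.98 and Slc4a1 at 1.11, 1.15 and 0.8201 against 0.879, 0.715 and 0.402.

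Hepatocyte genes had 8 of 12 above 0 and a median of 0.22, with 0 calls in edgeR (3 at an unadjusted p below 0.05, 1 by DESeq2, 0 by limma). Ttr, transthyretin, had 8602, 9799 and 7788 FPKM without leucine and 11897, 10314 and 11474 with it, without overlap (adjusted p = 0.191), while Cebpa had 86.8, 139 and 82.7 against 131, 158 and 154 and Hnf4a 98.1, 71.6 and 86.9 against 89.1, 109 and 88.8. All 13 mitochondrially encoded genes lay above 0 with a median of 0.25 and 0 calls (1 at an unadjusted p below 0.05, 0 by DESeq2, 0 by limma), Mt-nd6 having 1109.5, 1419.9 and 1246 against 1669, 1663 and 1259 FPKM, Mt-cyb 4301, 6332 and 5102 against 7350.3, 7051 and 4953, Mt-nd5 635, 1236 and 909 against 1334, 1398 and 902 and Mt-co2 6936, 8159.9 and 7204 against 9352, 9598 and 6563. Only 2 adipocyte markers were tested, with 0 calls (0 at an unadjusted p below 0.05, 0 by DESeq2, 0 by limma), and Cfd overlapped at 9.24, 9.64 and 6.52 against 9.59, 7.796 and 11.1 FPKM. Whether the mix of cells differed between the groups was not tested.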

How the data were processed

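Liver RNA-seq of 9 Sprague Dawley samples of day 211 was used, 3 per group. Per the labels' protocols, RNA came from a column kit and libraries from a SMARTER mRNA kit, which the labels do not describe as stranded, so overlapping and near-identical genes are uncertain. The read aligner and counter: not given in the sources used here. GRCm38 and mm10, which are mouse builds, appear in the submitters' processing notes, but the table itself has Ensembl rat gene IDs on rat chromosomes and names no build.

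Per the file headers, the deposited table gives a count and an FPKM per gene and sample. The deposited counts are whole but pile up at multiples of 4, so they were treated as estimated counts of about 4 units per fragment, and 3 fragments, 12 units, per library served as the floor for a gene at 0. The authors wrote an FPKM of 1e-04 where the count is 0, which was read as 0. Floors cover counting error only.

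Counts were tested with edgeR 4.0.16 in R 4.3.3 (TMM factors, filterByExpr with a minimum count of 10, quasi-likelihood test, two-sided), with 1 mean for each of the 3 groups over 9 samples and 6 residual degrees of freedom. Benjamini-Hochberg adjustment ran over 15019 genes, and an adjusted p below 0.05 was a call. Log2 changes come from this fit. The SE was derived from its test, as the absolute log2 change divided by the square root of the F statistic. Levels are the deposited FPKM, to which the TMM factors were not applied. These factors were 1.02 to 1.13 without leucine and 0.967 to 0.988 with it. Folds of mean FPKM thus tend to be larger for falls and smaller for rises than the fitted changes. Overlap was judged on TMM-scaled counts. The biological coefficient of variation was 0.379. The fit was tested on simulated data over 14610 genes, with the changed genes drawn only from those above the median abundance. It recovered 47 of 100 genes changed 2-fold and 95 of 100 changed 4-fold, with 4 false calls. Recovery of less abundant genes was not tested.

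There were 41 gene lists, with 843 of 893 symbols matched. Named are all called genes, the 4 members of smallest p of each list, a panel of metabolic and clock genes and the 10 uncalled genes of smallest p; a few of these are not reported here. The comparison, lists and panel were chosen with earlier results of these data known. Alternatives were DESeq2 1.42.0, limma 3.58.1 on FPKM or TPM, other scaling and filters, a block on the replicate number and leaving out each sample. The Wistar table was not analysed here.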

Additional observations from a re-analysis of the deposited data

How the results depend on the processing

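The 54 called genes kept their direction in each alternative in which they were tested, whereas their number moved. It was 42 with RLE size factors, 781 with DESeq2, 113 without a filter on low counts, 133 with a mean FPKM of at least 1, 98, 76 and 133 with limma on log2(FPKM + 1), log2(FPKM + 0.1) and log2(TPM + 1), 32 without the controls and 154 after counts were divided by 4. Leaving out 1 sample gave 1 to 539 calls, the lowest without early weaned replicate 1 and the highest without early weaned replicate 2, and the cause was not tested. Replicate numbers did not pair the samples (correlations of deviations from the group means -0.027, 0.010 and 0.017). A fit with the replicate block called 58 genes, 33 of them shared with the 54. Whether depth or the spread between 3 samples limits the calls more was not tested.

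Among uncalled genes some log2 changes turned sign, and the cause was not tested. With limma on log2(FPKM + 1), Fasn had -0.34, Scd -0.43 and Apob -0.0066, with log2(FPKM + 0.1) -0.36, -0.45 and -0.0067 in that order, and with log2(TPM + 1) -0.38, -0.47 and -0.037, where Bckdha had -0.0017 and Mtor -0.0012. With the replicate block Fasn had -0.042. Over the fits that left out 1 sample, Bcat2 ran from -0.46 to 0.20, Ppm1k from -0.045 to 0.83, Ddit4 from -0.42 to 0.071, Asns from -0.43 to 0.98, Trib3 from -0.68 to 0.33, Cpt1a from -0.34 to 0.79, Pdk4 from -0.49 to 0.27, Fasn from -0.91 to 0.77, Scd from -1.02 to 1.19, Pck1 from -0.699 to 0.026, G6pc from -0.42 to 0.37, Per1 from -0.097 to 0.65, Cry1 from -0.072 to 0.75 and Clock from -0.46 to 0.21. Leucine replicate 2 turned Trib3, Fasn, Scd and Pck1, and leucine replicate 3 turned Bcat2, Asns, Cpt1a, G6pc and Clock.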
